A study of Mus musculus with 12 samples.

Results

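The genes described here belong to the integrated stress response that runs through the transcription factor ATF4, together with the enzymes of serine, asparagine, folate, proline and cysteine metabolism and the amino acid transporters that this response is known to control. They are 39 genes given as a list of names, and all 39 were found among the 24341 genes of the deposited table. Of the 39, 38 reached 1 FPKM in at least 3 libraries and were tested. Stc2 was not, at 0.01 to 0.133 FPKM. FPKM counts sequenced fragments relative to transcript length and to the number of mapped fragments, so that levels can be compared between genes per unit of length.

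The RNA of 12 libraries was sequenced from SV40-immortalised C57Bl/6 cells of adipose tissue, to see how adipocyte differentiation proceeds with and without Acly, the gene of ATP citrate lyase. The 4 groups of 3 libraries, numbered as the labels number the replicates, were Aclyf/f preadipocytes (day 0), Acly-/- preadipocytes (day 0), Aclyf/f adipocytes (day 4) and Acly-/- adipocytes (day 4). Aclyf/f cells carry loxP-flanked Acly, all 4 groups carry SV40, and both adipocyte groups were taken 4 days after an adipogenic cocktail with rosiglitazone. The sources used here do not give how Acly was deleted, or whether libraries of a group come from separate cultures, clones or animals. All p-values thus cover the variation among these libraries alone, which may be technical.

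In the integrated stress response, kinases that sense stress phosphorylate the translation factor eIF2, which slows protein synthesis in general while favouring translation of Atf4 mRNA. ATF4 then induces genes for making and importing amino acids, together with genes that feed back on the response or shape cell survival. In adipose cells the same enzymes feed serine, glycine and folate units into nucleotide, NADPH and lipid synthesis. The values below are mRNA levels, and neither eIF2 phosphorylation nor ATF4 protein was measured.

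Depth, estimated from the steps of low FPKM values and given relative to the shallowest library, ran from 1 to 1.43 for Aclyf/f and 1.03 to 1.89 for Acly-/- preadipocytes, and from 1.51 to 1.94 and 1.26 to 1.56 for the adipocytes of both genotypes. Acly itself averaged 86.9 ± 2.33 FPKM (± SD, n = 3, as for all means below) in preadipocytes of the Aclyf/f genotype and 12.1 ± 0.309 FPKM in Acly-/- preadipocytes, and 754 ± 52.5 and 12.4 ± 1.17 FPKM in the adipocytes, with no overlap between genotypes. Of the adipocyte markers, Adipoq, Fabp4, Plin1, Cfd and Cidec were measurable and Lep was under 1 FPKM in every library. Of the preadipocyte markers, Pdgfra, Pdgfrb and Ly6a were measurable, while Cd34 had group means of 0.398 to 1.08 FPKM and Dlk1 and Thy1 were under it in every library. Of the markers of other cells, 6 of 8 for macrophages and leukocytes were under 1 FPKM in every library, the others being Cd14 and Lyz2. The same held for 5 of 6 of endothelium (all but Kdr), 5 of 6 of mesothelium and epithelium (all but Krt19) and 4 of 6 of skeletal muscle (all but Acta1 and Des). Of the 5 smooth muscle and pericyte markers, only Cspg4 and Rgs5 were under 1 FPKM in every library. Acta2 and Tagln were abundant, at means of 401 and 124 FPKM in Aclyf/f preadipocytes, and Myh11 averaged 6.96 FPKM in Aclyf/f adipocytes. One library stood apart: Acly-/- preadipocyte library 3 had 15.5% of its summed FPKM in its 10 highest genes, against 6.21% to 9.07% in the others, with the small nucleolar RNA Snord12 at 54145 FPKM. Where leaving it out changes a call, or a contrast's count of calls, among the 39 genes, the value without it is given. So is a change of size class between preadipocytes. How strand was handled is not known from the labels, and reads of genes that share exon on opposite strands cannot be told apart. By GENCODE M21 such sharing concerns 11 of the 39 genes: Eif2ak1, Eif2ak3, Ppp1r15a, Ppp1r15b, Atf5, Ddit3, Psph, Shmt1, Shmt2, Aldh1l2 and Slc6a9.

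ATF4 binds DNA together with partners of the C/EBP family at a composite element, and its letters were looked for in the promoters of these genes. The motif searched was TGATGNAA, which reads TTNCATCA on the other strand, in the 250 bases before and 50 bases after each start in RefSeq's promoter table (GRCm38.p6). Of the 39 genes, 33 had an entry, and 9 of the 33 (27.3%) held the motif, against 4.51% of all 27025 genes with an entry and 2.7% of the 8957 tested genes with one. With the 250 bases before the start alone it was 7 of 33 (21.2%), against 3.91% of all genes. The 9 stretches are shown because they carry these matches, which stand in capitals. They are written 5′ to 3′ along the gene's own strand, with the bases from 46 before the match, where the window has them, to 46 after it or to the start of transcription. For Slc1a4 the stretch ends with the match, which runs across the start, and for Trib3, where the match lies 15 bases into the transcript, only 5 bases on each side are given.

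Asns (chr6:7693210-7693278, minus strand): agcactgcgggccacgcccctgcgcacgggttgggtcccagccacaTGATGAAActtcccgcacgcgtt
Chac1 (chr2:119351003-119351102, plus strand): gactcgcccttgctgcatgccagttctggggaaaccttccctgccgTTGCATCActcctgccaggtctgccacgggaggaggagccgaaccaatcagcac
Fgf21 (chr7:45615576-45615675, minus strand): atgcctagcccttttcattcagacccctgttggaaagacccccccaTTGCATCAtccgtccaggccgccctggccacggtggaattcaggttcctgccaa
Nupr1 (chr7:126625527-126625626, minus strand): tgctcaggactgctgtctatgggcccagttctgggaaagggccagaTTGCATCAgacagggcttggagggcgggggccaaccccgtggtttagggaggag
Pycr1 (chr11:120643798-120643897, minus strand): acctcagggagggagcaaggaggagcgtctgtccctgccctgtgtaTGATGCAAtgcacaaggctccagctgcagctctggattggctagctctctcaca
Slc1a4 (chr11:20332710-20332763, minus strand): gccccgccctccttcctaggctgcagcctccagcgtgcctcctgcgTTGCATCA
Slc7a11 (chr3:50443614-50443725, minus strand): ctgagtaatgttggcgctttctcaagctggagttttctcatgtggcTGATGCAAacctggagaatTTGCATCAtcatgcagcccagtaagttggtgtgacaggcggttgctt
Trib3 (chr2:152344034-152344051, minus strand): caggtTTACATCAgccgg
Vldlr (chr19:27216774-27216873, plus strand): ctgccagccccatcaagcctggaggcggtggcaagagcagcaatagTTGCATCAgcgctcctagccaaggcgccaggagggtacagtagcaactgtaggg

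The matches began 23 bases before the start in Asns, 103 in Pycr1, 110 in Nupr1, 139 in Fgf21, 193 in Chac1 and 200 in Vldlr. Slc7a11 held 2, at 66 and 47 bases before the start and in opposite orientations. Of the 10 matches, 6 read TTGCATCA and 2 read TGATGCAA, its reverse complement. A match is a run of letters and not a site shown to be bound, and its absence elsewhere says only that these letters are not in the window. Aldh1l2, Cth, Ppp1r15b, Slc1a5, Slc7a3 and Slc7a5 had no entry.

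The first comparison asked how these genes differ between Acly-/- and Aclyf/f preadipocytes, before any differentiation. Most of them were higher without Acly, from 1.7-fold in Aldh18a1 to 25.1-fold in Trib3. Folds are ratios of group mean FPKM, and log2 fold changes come from the test on log2(FPKM + 1), which understates the change of low genes. Calls rest on limma's moderated test on log2(FPKM + 1), with p-values adjusted over all 11777 genes tested and a threshold of 0.05. Of the 38 genes tested, 29 were called higher (76.3%) and 1 lower, Shmt1, where 19.7% of all tested genes were called higher and 22.4% lower. Their median log2 fold change was 1.16, against -0.01 over all tested genes. Among them 25 rose by a log2 fold change of at least 1, a size reached by 2.97% of all tested genes. Without Acly-/- preadipocyte library 3 it was 22, since Ddit3 (0.96), Sesn2 (0.92) and Ddit4 (0.93) then stayed just under 1, still called, against 2.63% of all tested genes. Slc7a3 passed the filter on low values only through Acly-/- libraries, and Fgf21 and Cbs only through adipocytes; among the other 35 genes, 28 were higher and 1 lower. The genes that were not called were the 3 eIF2 kinase genes, Ppp1r15a, Ppp1r15b, Fgf21, Cbs and Slc38a2. With every library rescaled to the same FPKM sum, the counts stayed at 29 and 1, while rises made up 34.5% rather than 46.8% of the calls over all genes. Cell type markers moved with genotype too. The 5 smooth muscle and pericyte markers, mostly Acta2 and Tagln, summed to 512 to 539 FPKM in Aclyf/f and 151 to 168 FPKM in Acly-/- preadipocytes. The 6 adipocyte markers, mostly Fabp4, summed to 505 to 522 and 193 to 229 FPKM, a fall that Fabp4 carried. Fabp4 averaged 507 and 201 FPKM, while Adipoq stood at 3.13 and 2.99 FPKM and Plin1 at 0.576 and 0.569 FPKM. Cfd (1.14 and 1.45 FPKM) and Cidec (0.0589 and 0.198 FPKM) had the higher mean without Acly. The 6 preadipocyte markers, mostly Ly6a, summed to 641 to 744 and 834 to 1155 FPKM, but did not move as a set. Ly6a averaged 467 and 834 FPKM and Pdgfrb 87.4 and 104 FPKM. Pdgfra was lower without Acly, at 131 and 72.1 FPKM, as was Cd34, at 0.989 and 0.785 FPKM. Among the low lists, the 6 mesothelium and epithelium markers, mostly Krt19, summed to 1.62 to 2.32 and 4.16 to 6.4 FPKM. Skeletal muscle markers stood at 1.09 to 1.64 and 0.365 to 0.721 FPKM, endothelial markers at 1.45 to 1.75 and 1.06 to 1.5 FPKM, and macrophage and leukocyte markers at 3.29 to 5.38 and 2.98 to 4.89 FPKM. Their part in these results was not tested. In bulk RNA, a change in the share of cells of a kind and a change in RNA per cell cannot be told apart.

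**Figure D1:**
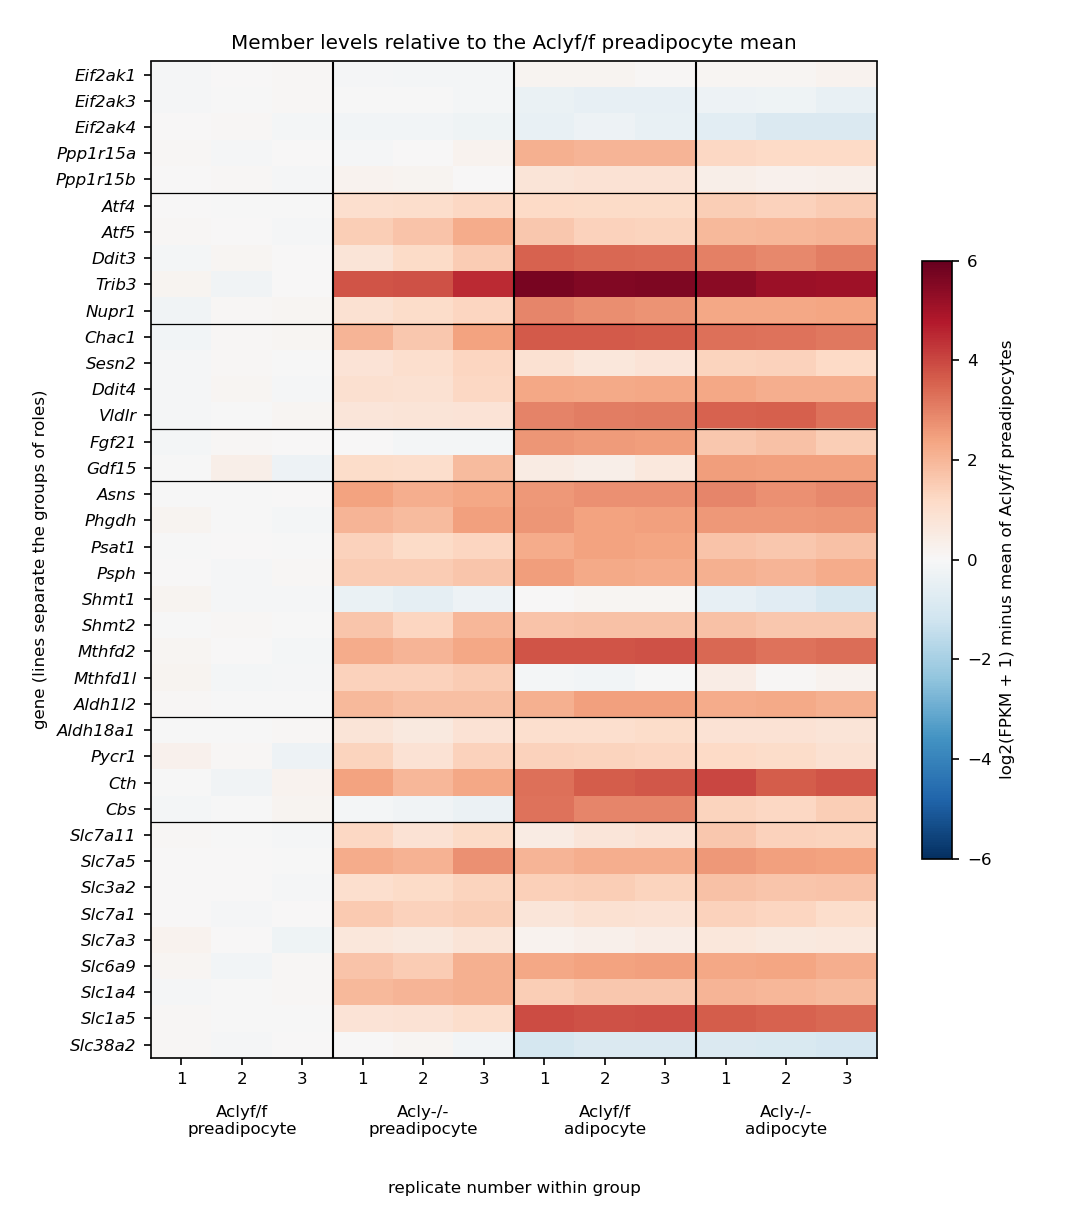
Each cell shows log2(FPKM + 1) of 1 gene in 1 library minus the mean of the 3 Aclyf/f preadipocyte libraries, for the 38 tested genes (rows, grouped by role) in 12 libraries (columns, by group and replicate number). The Acly-/- preadipocyte columns are red for most genes, and the rows of Eif2ak1, Eif2ak3, Eif2ak4 and Slc38a2 stay pale or turn blue in all 4 groups.

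The response starts with the eIF2 kinases and ends with the phosphatase subunits that reverse them, and none of these 5 genes was called between genotypes in preadipocytes by limma, nor did any reach an unadjusted p under 0.05. Among all tested genes, 19.7% were called higher and 22.4% lower there. Eif2ak1, the kinase gene responsive to heme and to mitochondrial stress, read 23.5, 25.4 and 26.1 FPKM in the Aclyf/f and 24.1, 23.1 and 22.9 FPKM in the Acly-/- preadipocyte libraries. Eif2ak1 in adipocyte libraries was 27.8, 28.1 and 25.8 FPKM with Acly and 27.3, 27.3 and 29.1 FPKM for Acly-/-. Its genotypes overlapped at both stages. The table gives it 1 locus with Aimp2 and Ankrd61, with which it shares 487 and 172 bases of exon on the other strand. Eif2ak3, which encodes the endoplasmic reticulum kinase PERK, read 10.3, 10.7 and 11.4 FPKM in the Aclyf/f and 10.5, 10.7 and 10.01 FPKM in the Acly-/- preadipocyte libraries. Eif2ak3 in adipocyte libraries was 8.02, 7.46 and 7.51 FPKM with Acly and 8.58, 8.93 and 7.76 FPKM for Acly-/-. Here too the genotypes overlapped at both stages, and the adipocyte libraries were the lower. The adipocyte difference of Eif2ak3 was not called, except as higher with quantile normalization (log2 fold change 0.19, adjusted p = 0.0458). Eif2ak4, which encodes GCN2, the sensor of uncharged tRNA, read 9.99, 10.4 and 9 FPKM in the Aclyf/f and 8.65, 8.68 and 8.02 FPKM in the Acly-/- preadipocyte libraries. Eif2ak4 in adipocyte libraries was 6.88, 7.82 and 6.88 FPKM with Acly and 5.96, 4.92 and 4.95 FPKM for Acly-/-. All 3 Acly-/- libraries lay below the Aclyf/f libraries at each stage. The 95% intervals of the log2 fold change in preadipocytes were -0.24 to 0.05 for Eif2ak1, -0.21 to 0.12 for Eif2ak3 and -0.39 to 0.01 for Eif2ak4 (adjusted p = 0.292, 0.64 and 0.11). In adipocytes Eif2ak4 fell 1.36-fold without Acly (log2 fold change -0.39 with SE 0.09, adjusted p = 0.00275). Eif2ak3 fell with differentiation in both genotypes, with log2 fold changes of -0.45 in Aclyf/f and -0.28 in Acly-/- cells, and the difference between them was not called (adjusted p = 0.214).

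Ppp1r15a, the stress-inducible phosphatase subunit GADD34, was not called between genotypes at day 0. It averaged 11.5 ± 0.452 FPKM in preadipocytes with Acly and 12 ± 1.18 FPKM in those lacking it (adjusted p = 0.58), with overlapping libraries. With differentiation it rose 4.47-fold in Aclyf/f and 2.34-fold in Acly-/- cells, to 51.2 ± 2.06 and 28 ± 0.586 FPKM. Adipocytes without Acly thus held 1.83-fold less of it (log2 fold change -0.85 with SE 0.08, adjusted p = 7.35e-07). Ppp1r15b, the subunit thought to act without stress, was 29.7 ± 1.29 and 32.8 ± 2.05 FPKM in preadipocytes (adjusted p = 0.13, but called higher, at 0.0468, without Acly-/- preadipocyte library 3). In adipocytes it was 53.4 ± 1.93 FPKM with Acly against 37 ± 1.54 FPKM in its absence, 1.44-fold lower (adjusted p = 3.08e-05). Gm26616 shares 640 bases of exon with Ppp1r15b on the other strand.

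The 5 genes for transcription regulators and their partners were all called higher in Acly-/- preadipocytes and all differed between genotypes in adipocytes, but there 2 were higher and 3 lower. Among all tested genes, 19.7% were called higher in preadipocytes, and 25.6% higher and 29.2% lower in adipocytes. Atf4 (chromosome 15, 80255184 to 80257545, mm10), the central factor, read 156, 150.2 and 149 FPKM in the Aclyf/f and 311, 313 and 363 FPKM in the Acly-/- preadipocyte libraries. Atf4 in adipocyte libraries was 353, 336 and 333 FPKM with Acly and 427, 394 and 443 FPKM for Acly-/-. Every Acly-/- preadipocyte library lay above every Aclyf/f preadipocyte library, at 2.17-fold the level (log2 fold change 1.11 with SE 0.07, adjusted p = 1.09e-07). In adipocytes the libraries again did not overlap, with Atf4 1.24-fold higher without Acly (log2 fold change 0.30 with SE 0.07, adjusted p = 0.00373). Atf5, a related factor of the same response, read 59.1, 57.4 and 53.2 FPKM in the Aclyf/f and 160.2, 184 and 269 FPKM in the Acly-/- preadipocyte libraries. Atf5 in adipocyte libraries was 177, 147 and 147 FPKM with Acly and 223, 225 and 238 FPKM for Acly-/-. Its library 3 in Acly-/- preadipocytes was the highest of all 12. It rose 3.62-fold at day 0 (log2 fold change 1.80 with SE 0.15, adjusted p = 5.39e-07; 1.59, adjusted p = 1.77e-07 without that library) and 1.46-fold in adipocytes (adjusted p = 0.00624). The table places Atf5 in 1 locus with Il4i1, Nup62 and Tbc1d17, and it shares 82 bases of exon with each of Il4i1 and Nup62 on the other strand.

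Ddit3 (chromosome 10, 127290793 to 127311786), Trib3 and Nupr1 went the other way in adipocytes. Ddit3 encodes CHOP, a stress factor of the C/EBP family that can hold back adipogenic C/EBP proteins. It read 26.4, 31.5 and 29.3 FPKM in the Aclyf/f and 50.3, 65 and 86.5 FPKM in the Acly-/- preadipocyte libraries. Ddit3 in adipocyte libraries was 353, 323 and 319 FPKM with Acly and 247, 224 and 250.2 FPKM for Acly-/-. The 4 groups did not overlap, and Acly-/- cells were 2.31-fold higher at day 0 (log2 fold change 1.15 with SE 0.14, adjusted p = 2.82e-05) and 1.38-fold lower at day 4 (log2 fold change -0.46 with SE 0.14, adjusted p = 0.0145). Without Acly-/- preadipocyte library 3 the day 0 value was 0.96, adjusted p = 2.58e-05. The day 4 call ended without library 2 of the Acly-/- adipocytes (0.053), and with no filter on low values (0.0791). The table places Ddit3 in 1 locus with its neighbour Mars on the other strand, with 68 bases of shared exon.

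Trib3 (chromosome 2, 152337425 to 152344060), a pseudokinase gene that ATF4 induces and whose product restrains ATF4 and AKT, changed most of the 38 genes in preadipocytes on the log2 scale. It read 2.22, 1.47 and 1.85 FPKM in the Aclyf/f and 38.3, 39.2 and 61.3 FPKM in the Acly-/- preadipocyte libraries. Trib3 in adipocyte libraries was 144, 134 and 134 FPKM with Acly and 121, 97.9 and 95 FPKM for Acly-/-. The Aclyf/f preadipocyte libraries were within reach of the filter at 1 FPKM and every other library was at least 38.3 FPKM. Acly-/- preadipocytes were 25.1-fold higher (log2 fold change 4.03 with SE 0.16, adjusted p = 1.99e-09; 3.81, adjusted p = 2.46e-09 without Acly-/- preadipocyte library 3). In adipocytes Trib3 was 1.31-fold lower without Acly, with no overlap (log2 fold change -0.40 with SE 0.16, adjusted p = 0.0466). That call ended without library 3 of the Aclyf/f preadipocytes (0.0535), library 1, 2 or 3 of the Aclyf/f adipocytes (0.108, 0.0778 or 0.0775) or library 2 or 3 of the Acly-/- adipocytes (0.124 or 0.145), and with a pseudocount of 0.1 (0.0671), a pseudocount of 0.5 (0.0547), no filter on low values (0.181), a filter on a mean of at least 1 FPKM (0.05 after rounding), quantile normalization (0.0752) and no mean-variance trend (0.0539).

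Nupr1, a small stress-induced chromatin protein, read 50.9, 62.9 and 63.8 FPKM in the Aclyf/f and 114, 127 and 145 FPKM in the Acly-/- preadipocyte libraries. Nupr1 in adipocyte libraries was 459.6, 410.2 and 382 FPKM with Acly and 301, 302 and 313 FPKM for Acly-/-. Its groups did not overlap and stood in the same order as those of Ddit3 and Trib3, from Aclyf/f preadipocytes through Acly-/- preadipocytes and Acly-/- adipocytes to Aclyf/f adipocytes. It was 2.17-fold higher at day 0 (log2 fold change 1.11 with SE 0.11, adjusted p = 2.45e-06) and 1.37-fold lower at day 4 (log2 fold change -0.45 with SE 0.11, adjusted p = 0.00284).

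**Figure D2:**
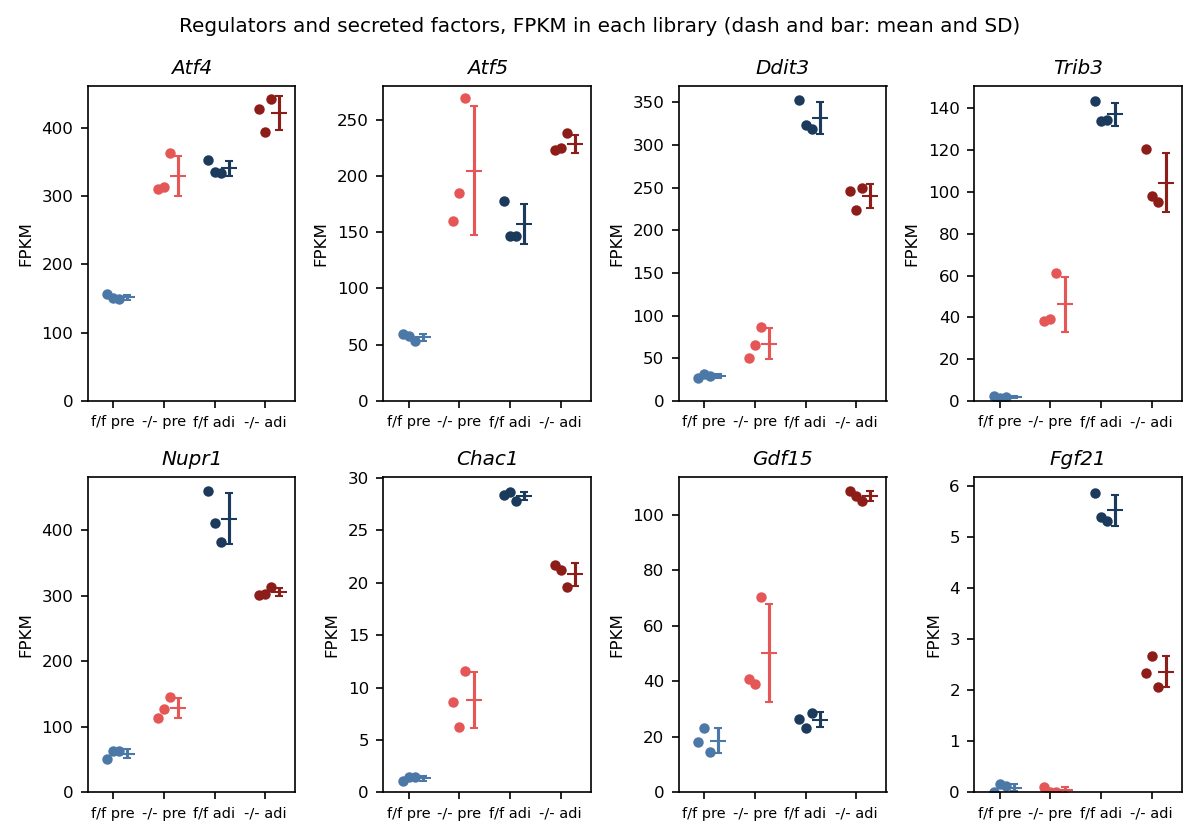
FPKM (vertical axis, from 0) of 8 regulator and secreted factor genes in each library (points), with the mean and SD of the 3 libraries of a group (dash and bar), for Aclyf/f (f/f) and Acly-/- (-/-) preadipocytes (pre) and adipocytes (adi). Trib3 goes from 1.84 FPKM in Aclyf/f to 46.3 FPKM in Acly-/- preadipocytes, Gdf15 is highest in Acly-/- adipocytes, and Fgf21 is above 1 FPKM in adipocytes alone.

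Effectors that act on glutathione, mTORC1 and lipoproteins were higher at day 0 in 4 of 4, against 19.7% of all tested genes. Chac1, which breaks down glutathione, read 1.06, 1.46 and 1.48 FPKM in the Aclyf/f and 8.59, 6.24 and 11.5 FPKM in the Acly-/- preadipocyte libraries. Chac1 in adipocyte libraries was 28.3, 28.6 and 27.8 FPKM with Acly and 21.7, 21.2 and 19.6 FPKM for Acly-/-. All 3 Acly-/- libraries were above the Aclyf/f libraries at day 0 and below them at day 4. The preadipocyte genotypes were 6.59-fold apart (log2 fold change 2.04 with SE 0.15, adjusted p = 2.33e-07), and in adipocytes Acly-/- libraries were 1.36-fold lower (log2 fold change -0.43 with SE 0.15, adjusted p = 0.0287). The adipocyte call ended without library 1, 2 or 3 of the Aclyf/f adipocytes (0.0582, 0.067 or 0.055) or library 2 or 3 of the Acly-/- adipocytes (0.0558 or 0.088), and with a pseudocount of 0.1 (0.0513) and no filter on low values (0.118). Sesn2, a sensor of leucine that restrains mTORC1, read 11.4, 12.8 and 11.9 FPKM in the Aclyf/f and 22, 25.6 and 30.4 FPKM in the Acly-/- preadipocyte libraries. Sesn2 in adipocyte libraries was 23.2, 20 and 22.2 FPKM with Acly and 32.3, 33.3 and 29 FPKM for Acly-/-. Acly-/- libraries were the higher at both stages, without overlap. It differed 2.16-fold at day 0 (log2 fold change 1.04 with SE 0.11, adjusted p = 4.3e-06; 0.92, adjusted p = 1.2e-05 without Acly-/- preadipocyte library 3) and 1.45-fold at day 4 (log2 fold change 0.51 with SE 0.11, adjusted p = 0.00106).

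Ddit4, which encodes REDD1, another inhibitor of mTORC1, read 21.4, 24.2 and 21.2 FPKM in the Aclyf/f and 43.6, 42.8 and 54.5 FPKM in the Acly-/- preadipocyte libraries. Ddit4 in adipocyte libraries was 114, 113 and 115 FPKM with Acly and 117, 103 and 105 FPKM for Acly-/-. The preadipocyte genotypes were apart and the adipocyte genotypes overlapped. It was 2.11-fold higher in Acly-/- preadipocytes (log2 fold change 1.04 with SE 0.09, adjusted p = 1.21e-06; 0.93, adjusted p = 1.88e-06 without Acly-/- preadipocyte library 3), and was not called in adipocytes (95% interval of the log2 fold change -0.27 to 0.12, adjusted p = 0.52). Vldlr, a receptor for triglyceride-rich lipoproteins, was 4.72 ± 0.466 and 8.83 ± 0.309 FPKM in Aclyf/f and Acly-/- preadipocytes and 46.7 ± 2.36 and 62 ± 6.8 FPKM in adipocytes. It was called higher without Acly at both stages (1.31e-05 and 0.00208, adjusted p), with no overlap at either.

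Of the secreted factors, Gdf15 was higher and Fgf21 lower in Acly-/- adipocytes. Gdf15 (chromosome 8, 70629394 to 70631635), a stress hormone that acts on the hindbrain, read 18.1, 23.4 and 14.4 FPKM in the Aclyf/f and 40.9, 39 and 70.4 FPKM in the Acly-/- preadipocyte libraries. Gdf15 in adipocyte libraries was 26.5, 23.3 and 28.8 FPKM with Acly and 109, 107 and 105 FPKM for Acly-/-. Acly-/- adipocytes were above every other group and the Acly-/- preadipocytes came next. It was 2.69-fold higher without Acly at day 0 (log2 fold change 1.35 with SE 0.19, adjusted p = 9.71e-05; 1.09, adjusted p = 0.000117 without Acly-/- preadipocyte library 3, the highest of its group) and 4.08-fold higher at day 4 (log2 fold change 1.99 with SE 0.19, adjusted p = 1.77e-06), the largest rise of the 38 genes in adipocytes. The difference between stages was not called (log2 fold change 0.64 with SE 0.28, adjusted p = 0.0682), but was without library 3 of the Aclyf/f preadipocytes (0.0273) or library 3 of the Acly-/- preadipocytes (0.00257) and with rescaling to the same FPKM sum (0.0344). Fgf21, a metabolic hormone made by liver and fat, was at 0.01 to 0.16 FPKM in preadipocytes, where it rests on few fragments. In adipocytes it read 5.86, 5.39 and 5.3 FPKM with Acly and 2.34, 2.67 and 2.06 FPKM without, 2.34-fold lower (log2 fold change -0.96 with SE 0.10, adjusted p = 3.19e-06). Stc2, a secreted glycoprotein, was at 0.01 to 0.13 FPKM in all 12 libraries and no fold is given for it.

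Enzymes that make asparagine, serine and mitochondrial folate units rose in 8 of 9 in Acly-/- preadipocytes, and Shmt1 fell (88.9% and 11.1%, against 19.7% and 22.4% of all tested genes). Asns (chromosome 6, 7675171 to 7693182), asparagine synthetase, read 24.4, 24.7 and 25.5 FPKM in the Aclyf/f and 137, 117 and 130.2 FPKM in the Acly-/- preadipocyte libraries. Asns in adipocyte libraries was 156, 172 and 172 FPKM with Acly and 194, 172 and 189 FPKM for Acly-/-. Acly-/- preadipocytes held 5.14-fold the Aclyf/f level (log2 fold change 2.31 with SE 0.08, adjusted p = 6.94e-10), without overlap. In adipocytes the Acly-/- mean was 1.11-fold the Aclyf/f mean, with Acly-/- library 2 level with Aclyf/f libraries 2 and 3, and the difference was not called (95% interval -0.01 to 0.31 on the log2 scale, adjusted p = 0.111).

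The 3 enzymes of the serine pathway from phosphoglycerate act in the order Phgdh, Psat1, Psph, and all 3 were higher in Acly-/- preadipocytes. Phgdh, the dehydrogenase of the first step, read 28.5, 25.3 and 23.5 FPKM in the Aclyf/f and 107, 97.3 and 146 FPKM in the Acly-/- preadipocyte libraries. Phgdh in adipocyte libraries was 166, 142 and 146 FPKM with Acly and 161, 159 and 169 FPKM for Acly-/-. All 3 Acly-/- libraries were higher at day 0, and the genotypes overlapped at day 4. It was 4.53-fold higher at day 0 (log2 fold change 2.12 with SE 0.12, adjusted p = 3.18e-08), and was not called at day 4 (adjusted p = 0.487). Psat1, the aminotransferase, read 67.1, 68.5 and 66 FPKM in the Aclyf/f and 177, 151 and 168 FPKM in the Acly-/- preadipocyte libraries. Psat1 in adipocyte libraries was 316, 359 and 356 FPKM with Acly and 225, 211 and 228 FPKM for Acly-/-. It was 2.46-fold higher at day 0 (log2 fold change 1.28 with SE 0.08, adjusted p = 3.11e-08) and 1.55-fold lower at day 4 (log2 fold change -0.63 with SE 0.08, adjusted p = 1.1e-05), with no overlap at either stage. Psph, the phosphatase that completes serine, read 11.8, 11.3 and 12.2 FPKM in the Aclyf/f and 36, 36 and 39.5 FPKM in the Acly-/- preadipocyte libraries. Psph in adipocyte libraries was 72.1, 60.1 and 59.5 FPKM with Acly and 55.6, 51.5 and 59.7 FPKM for Acly-/-. The genotypes were apart at day 0 and overlapped at day 4. Acly-/- preadipocytes were 3.15-fold higher (log2 fold change 1.58 with SE 0.09, adjusted p = 1.68e-08). In adipocytes the difference was not called (-0.19 on the log2 scale, adjusted p = 0.0712), but was, as lower, without library 3 of the Acly-/- adipocytes (0.0446) and with rescaling to the same FPKM sum (0.0106). Cct6a shares 452 bases of exon with Psph on the other strand.

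Serine and folate meet in the hydroxymethyltransferases, where the mitochondrial and cytosolic genes went apart. Shmt2, the mitochondrial enzyme, read 39.4, 42.4 and 40.3 FPKM in the Aclyf/f and 133, 101 and 163 FPKM in the Acly-/- preadipocyte libraries. Shmt2 in adipocyte libraries was 137, 141 and 140.4 FPKM with Acly and 142, 128 and 128 FPKM for Acly-/-. Preadipocytes were apart by genotype, with library 2 the lowest and library 3 the highest of the Acly-/- group, and adipocytes overlapped. It was 3.25-fold higher in Acly-/- preadipocytes (log2 fold change 1.65 with SE 0.13, adjusted p = 3.1e-07) and was not called in adipocytes (adjusted p = 0.649). Shmt1, the cytosolic enzyme, read 20.4, 17.1 and 17 FPKM in the Aclyf/f and 13.7, 12.3 and 14.5 FPKM in the Acly-/- preadipocyte libraries. Shmt1 in adipocyte libraries was 18.7, 19.8 and 19.4 FPKM with Acly and 12.5, 11 and 8.81 FPKM for Acly-/-. Here Acly-/- libraries were below the Aclyf/f libraries at both stages. It was 1.35-fold lower in Acly-/- preadipocytes (log2 fold change -0.40 with SE 0.11, adjusted p = 0.0113) and 1.8-fold lower in Acly-/- adipocytes (log2 fold change -0.80 with SE 0.11, adjusted p = 4.48e-05). The preadipocyte call ended without library 1 of the Aclyf/f preadipocytes (0.0523). Smcr8 shares 184 bases of exon with Shmt1 on the other strand, and Ndufa4l2 shares 32 with Shmt2.

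The other mitochondrial folate enzymes rose at day 0 as well. Mthfd2 (chromosome 6, 83305704 to 83317604), the dehydrogenase and cyclohydrolase, read 25.6, 24.6 and 21.8 FPKM in the Aclyf/f and 117, 101 and 125 FPKM in the Acly-/- preadipocyte libraries. Mthfd2 in adipocyte libraries was 342, 343 and 349 FPKM with Acly and 267, 241 and 255 FPKM for Acly-/-. Groups did not overlap, with a 4.77-fold rise at day 0 (log2 fold change 2.2 with SE 0.09, adjusted p = 1.99e-09) and a 1.35-fold lower level at day 4 (log2 fold change -0.44 with SE 0.09, adjusted p = 0.000724). Aldh1l2, a mitochondrial formyltetrahydrofolate dehydrogenase that yields NADPH, read 14.5, 13.4 and 13.4 FPKM in the Aclyf/f and 56.5, 50.1 and 51.1 FPKM in the Acly-/- preadipocyte libraries. Aldh1l2 in adipocyte libraries was 62.9, 81.6 and 81.4 FPKM with Acly and 69.1, 69.3 and 64 FPKM for Acly-/-. Every Acly-/- preadipocyte library was above the Aclyf/f ones, and adipocytes overlapped. It was 3.82-fold higher at day 0 (log2 fold change 1.86 with SE 0.10, adjusted p = 1.19e-08), and was not called at day 4 (adjusted p = 0.211), though called lower without library 1 of the Aclyf/f adipocytes (0.0113). D10Wsu102e shares 1056 bases of exon with it on the other strand.

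Mthfd1l, the mitochondrial formate-releasing synthetase, read 16.1, 13.3 and 13.5 FPKM in the Aclyf/f and 39.1, 38.3 and 42.4 FPKM in the Acly-/- preadipocyte libraries. Mthfd1l in adipocyte libraries was 13.1, 12.6 and 14.2 FPKM with Acly and 19.9, 15.3 and 16.6 FPKM for Acly-/-. The highest level of the 4 groups was that of Acly-/- preadipocytes, and Acly-/- adipocytes lay above Aclyf/f adipocytes. It was 2.79-fold higher without Acly at day 0 (log2 fold change 1.42 with SE 0.10, adjusted p = 1.63e-07) and 1.29-fold higher at day 4 (log2 fold change 0.34 with SE 0.10, adjusted p = 0.0109), the latter call ending without library 1 of the Acly-/- adipocytes (0.0617) and with rescaling to the same FPKM sum (0.0582). With differentiation it was not called in Aclyf/f cells (95% interval -0.31 to 0.12, adjusted p = 0.413), and fell 2.32-fold in Acly-/- cells (adjusted p = 2.77e-07). For comparison, the cytosolic counterparts Mthfd1 (chosen after its values were seen) and Aldh1l1 were 14.6 ± 0.742 and 11.4 ± 1.59 FPKM in Aclyf/f preadipocytes against 16.1 ± 2.48 and 9.75 ± 0.755 FPKM in Acly-/- preadipocytes. Neither was called there (adjusted p = 0.315 and 0.105).

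**Figure D3:**
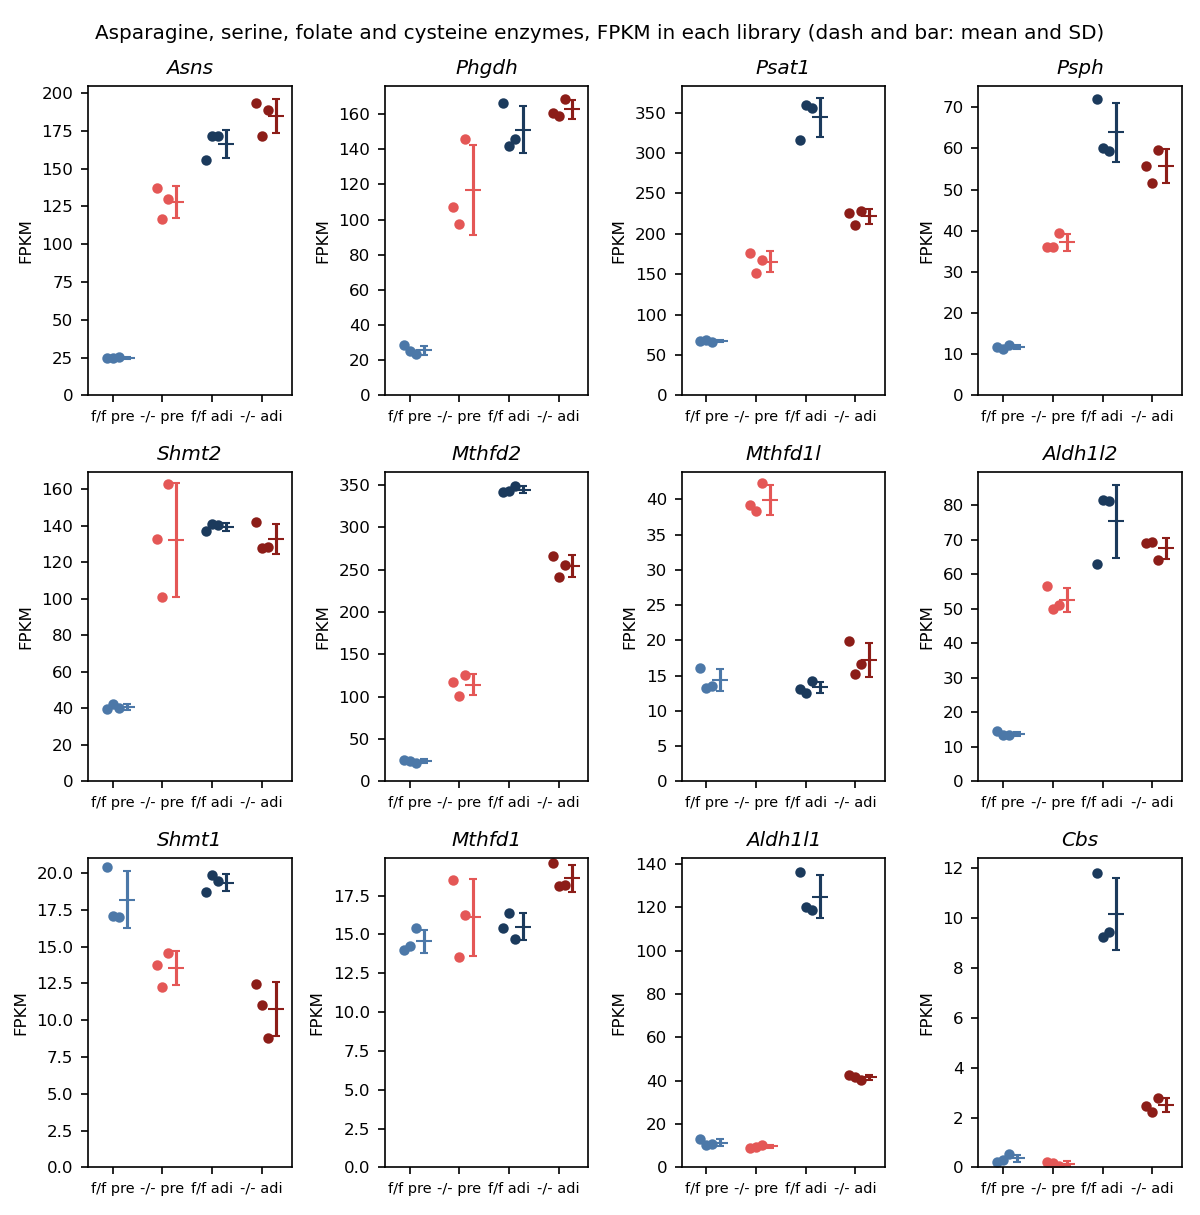
FPKM (vertical axis, from 0) of 12 enzyme genes in each library (points), with the mean and SD of the 3 libraries of a group (dash and bar), labelled as f/f or -/- for Aclyf/f or Acly-/- and pre or adi for preadipocytes or adipocytes. Asns, Phgdh, Psat1, Psph, Shmt2, Mthfd2, Mthfd1l and Aldh1l2 are higher in Acly-/- than in Aclyf/f preadipocytes, Shmt1 is lower, and Cbs is under 1 FPKM before differentiation.

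Proline and cysteine enzymes rose in 3 of 4 in Acly-/- preadipocytes (75.0%, against 19.7% of all tested genes). Aldh18a1, which starts proline synthesis from glutamate, was 29.3 ± 1.02 FPKM with Acly and 49.8 ± 4.71 FPKM without (log2 fold change 0.74 with SE 0.07, adjusted p = 3.47e-06). In adipocytes it was 61.4 ± 2.43 and 53.2 ± 1.37 FPKM (log2 fold change -0.20 with SE 0.07, adjusted p = 0.031), a call that ended without library 2 or 3 of the Aclyf/f adipocytes (0.0593 or 0.113) or library 1, 2 or 3 of the Acly-/- adipocytes (0.0574, 0.0565 or 0.0857) and with quantile normalization (0.11). Pycr1, which completes proline in mitochondria, read 3.23, 2.75 and 1.92 FPKM in the Aclyf/f and 7.96, 5.53 and 8.32 FPKM in the Acly-/- preadipocyte libraries. Pycr1 in adipocyte libraries was 8.48, 7.98 and 7.77 FPKM with Acly and 7.24, 6.62 and 5.67 FPKM for Acly-/-. Acly-/- libraries were all higher at day 0 and all lower at day 4. It was 2.76-fold higher at day 0 (log2 fold change 1.19 with SE 0.15, adjusted p = 3.49e-05). The adipocyte difference was not called (-0.28, adjusted p = 0.137) except with a fit of only the groups compared (0.0375).

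Cth and Cbs form the pair of enzymes that makes cysteine from homocysteine, and Cth was called at day 0 while Cbs was called at day 4. Cth, cystathionine gamma-lyase, read 3.05, 2.5 and 3.75 FPKM in the Aclyf/f and 20.5, 15.3 and 19.1 FPKM in the Acly-/- preadipocyte libraries. Cth in adipocyte libraries was 39.2, 49.2 and 52.2 FPKM with Acly and 63.7, 49.9 and 54.5 FPKM for Acly-/-. No Acly-/- preadipocyte library came near the Aclyf/f ones, and adipocytes overlapped. It was 5.89-fold higher in Acly-/- preadipocytes (log2 fold change 2.23 with SE 0.14, adjusted p = 5.95e-08) and was not called in adipocytes (adjusted p = 0.145). Cbs, cystathionine beta-synthase, read 0.235, 0.314 and 0.533 FPKM in the Aclyf/f and 0.234, 0.171 and 0.0627 FPKM in the Acly-/- preadipocyte libraries. Cbs in adipocyte libraries was 11.8, 9.24 and 9.44 FPKM with Acly and 2.48, 2.23 and 2.78 FPKM for Acly-/-. Acly-/- libraries were the lower at both stages, by a small margin in preadipocytes. Preadipocytes of both genotypes were under 1 FPKM, where few fragments were counted (adjusted p = 0.136, called lower at 0.0251 with a pseudocount of 0.1). In adipocytes Cbs was 4.07-fold lower without Acly (log2 fold change -1.67 with SE 0.12, adjusted p = 8.29e-08), the largest fall of the 38 genes at that stage.

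Of the 9 amino acid transporter genes, 8 were called higher in Acly-/- preadipocytes (88.9%, against 19.7% of all tested genes) and 6 in Acly-/- adipocytes, where 1 was lower (66.7% and 11.1%, against 25.6% and 29.2%). Both counts of rises include Slc7a3, which is low. Slc7a5 (chromosome 8, 121881146 to 121907686), the light chain of the large neutral amino acid carrier, read 18.5, 18.5 and 18.2 FPKM in the Aclyf/f and 88.7, 81.6 and 127 FPKM in the Acly-/- preadipocyte libraries. Slc7a5 in adipocyte libraries was 79.7, 86 and 88 FPKM with Acly and 115, 107 and 103 FPKM for Acly-/-. Acly-/- libraries were all the higher at both stages. It was 5.39-fold higher at day 0 (log2 fold change 2.34 with SE 0.12, adjusted p = 1.47e-08; 2.15, adjusted p = 4.6e-09 without Acly-/- preadipocyte library 3, the highest of all 12). At day 4 it was 1.28-fold higher (log2 fold change 0.36 with SE 0.12, adjusted p = 0.026), a call that ended without library 1 or 2 of the Aclyf/f adipocytes (0.077 or 0.0502) or library 1 or 2 of the Acly-/- adipocytes (0.0866 or 0.0533) and with no filter on low values (0.107). Slc3a2, the heavy chain shared by several such carriers, read 47.2, 46.2 and 44.3 FPKM in the Aclyf/f and 94.4, 101 and 119 FPKM in the Acly-/- preadipocyte libraries. Slc3a2 in adipocyte libraries was 127, 127 and 118 FPKM with Acly and 156, 149 and 153 FPKM for Acly-/-. Its genotypes were apart at both stages. It was 2.29-fold higher without Acly at day 0 (log2 fold change 1.17 with SE 0.08, adjusted p = 1.18e-07) and 1.23-fold higher at day 4 (log2 fold change 0.30 with SE 0.08, adjusted p = 0.00673).

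Slc7a11, the cystine and glutamate exchanger that supplies cysteine for glutathione, read 1.77, 1.61 and 1.51 FPKM in the Aclyf/f and 5.3, 3.85 and 4.75 FPKM in the Acly-/- preadipocyte libraries. Slc7a11 in adipocyte libraries was 2.71, 3.38 and 3.77 FPKM with Acly and 6.92, 5.91 and 5.58 FPKM for Acly-/-. Its Acly-/- libraries were above the Aclyf/f libraries at both stages, 2.85-fold at day 0 (log2 fold change 1.09 with SE 0.12, adjusted p = 9.74e-06) and 1.87-fold at day 4 (log2 fold change 0.74 with SE 0.12, adjusted p = 0.00018). Slc7a1, a carrier of cationic amino acids, read 9.67, 9.01 and 9.56 FPKM in the Aclyf/f and 29.8, 26.2 and 28.2 FPKM in the Acly-/- preadipocyte libraries. Slc7a1 in adipocyte libraries was 16.1, 18.7 and 18 FPKM with Acly and 26, 24.5 and 20.3 FPKM for Acly-/-. Here too no Acly-/- library overlapped the Aclyf/f libraries of its stage. It was 2.98-fold higher at day 0 (log2 fold change 1.48 with SE 0.09, adjusted p = 5.95e-08) and 1.34-fold higher at day 4 (log2 fold change 0.40 with SE 0.09, adjusted p = 0.00286). Slc7a3, a related cationic carrier, read 0.511, 0.341 and 0.0892 FPKM in Aclyf/f and 1.1, 0.93 and 1.245 FPKM in Acly-/- preadipocytes. In adipocytes it read 0.507, 0.63 and 0.768 FPKM with Acly and 1.06, 0.963 and 1.02 FPKM without. It reached 1 FPKM in 4 libraries, all of them Acly-/-, and so passed the filter on low values only through the groups where it is higher, which makes its differences a description. On the log2(FPKM + 1) scale the differences were 0.68 at day 0 (adjusted p = 0.000577) and 0.30 at day 4 (adjusted p = 0.0488). The day 4 call for Slc7a3 ended without library 2 of the Aclyf/f preadipocytes (0.06), library 1, 2 or 3 of the Acly-/- preadipocytes (0.0599, 0.0521 or 0.053), library 1, 2 or 3 of the Aclyf/f adipocytes (0.165, 0.107 or 0.0504) or library 1, 2 or 3 of the Acly-/- adipocytes (0.108, 0.0734 or 0.095), and with a pseudocount of 0.1 (0.151), a pseudocount of 0.5 (0.0653), no filter on low values (0.093), rescaling to the same FPKM sum (0.0859), quantile normalization (0.0964) and a replicate block (0.0714).

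Slc1a4, a carrier of alanine, serine and cysteine, read 6.73, 6.88 and 7.53 FPKM in the Aclyf/f and 30.1, 32.3 and 34.5 FPKM in the Acly-/- preadipocyte libraries. Slc1a4 in adipocyte libraries was 21.3, 24 and 23.9 FPKM with Acly and 32.4, 31.4 and 29 FPKM for Acly-/-. Acly-/- libraries were all higher at each stage. It was 4.58-fold higher at day 0 (log2 fold change 2.05 with SE 0.08, adjusted p = 1.99e-09) and 1.34-fold higher at day 4 (log2 fold change 0.41 with SE 0.08, adjusted p = 0.000693). Slc6a9, a glycine transporter, read 6.72, 5.4 and 6.41 FPKM in the Aclyf/f and 22.6, 19.8 and 30.7 FPKM in the Acly-/- preadipocyte libraries. Slc6a9 in adipocyte libraries was 34.7, 36.9 and 37.9 FPKM with Acly and 35.1, 36.4 and 31.8 FPKM for Acly-/-. The genotypes were apart in preadipocytes and overlapped in adipocytes. It was 3.94-fold higher at day 0 (log2 fold change 1.80 with SE 0.13, adjusted p = 1.72e-07) and was not called at day 4 (adjusted p = 0.608). Ccdc24 shares 1429 bases of exon with Slc6a9 on the other strand.

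Slc1a5, the glutamine carrier ASCT2, was 39 ± 1.66 FPKM in preadipocytes with Acly and 74.9 ± 6.71 FPKM in those lacking it (log2 fold change 0.92 with SE 0.08, adjusted p = 8.35e-07). Differentiation took it to 588 ± 21.1 and 461 ± 33 FPKM, so that it was 1.28-fold lower without Acly at day 4 (log2 fold change -0.35 with SE 0.08, adjusted p = 0.00185). Slc38a2, a sodium-coupled neutral amino acid carrier, was the transporter with no call for genotype at either stage. It was 178 ± 7.67 and 178 ± 16.8 FPKM in preadipocytes and 93.6 ± 6.56 and 92.9 ± 5.56 FPKM in adipocytes, with 95% intervals of -0.18 to 0.17 and -0.19 to 0.17 for the log2 fold changes.

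**Figure D4:**
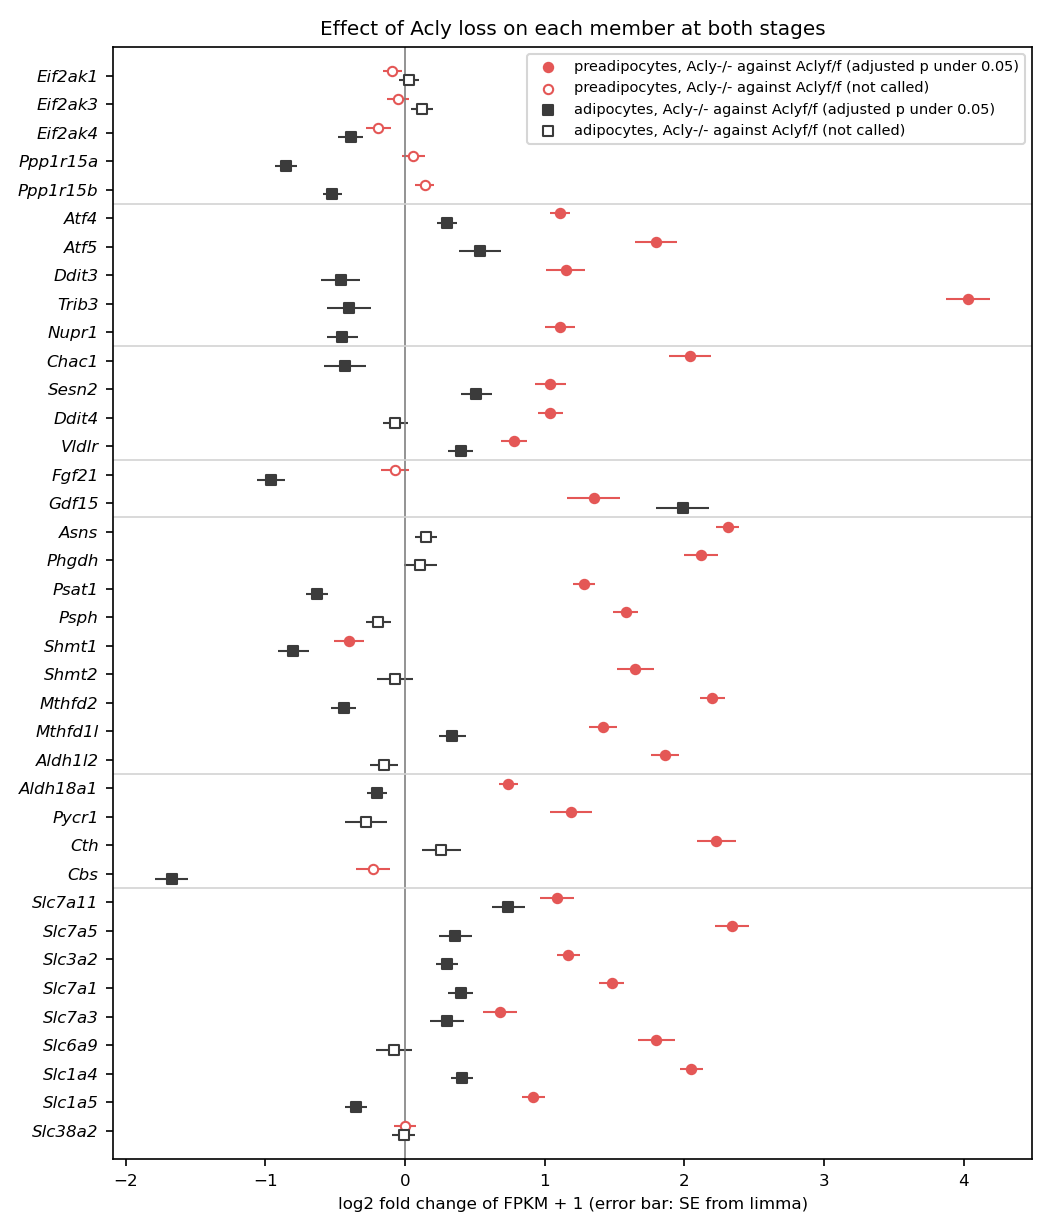
Log2 fold change of FPKM + 1 for Acly-/- against Aclyf/f (horizontal axis, with limma's SE) of the 38 tested genes, grouped by role, in preadipocytes (circles) and adipocytes (squares), filled where the adjusted p is under 0.05. Circles of 29 genes are filled and to the right of 0, while filled squares fall on both sides, 12 to the right and 14 to the left.

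The second comparison asked how the same genes differ in adipocytes on day 4. Of the 38 genes, 12 were higher (31.6%) and 14 lower (36.8%) in Acly-/- adipocytes, where 25.6% of all tested genes were higher and 29.2% lower. The median was -0.07, against -0.02 over all tested genes, and 2 of the 26 calls moved by 1 or more on the log2 scale, Gdf15 up and Cbs down, sizes reached by 3.53% of all tested genes upward and 4.42% downward. Transporters held 6 of the 12 rises, and the others were Atf4, Atf5, Sesn2, Vldlr, Gdf15 and Mthfd1l. The 14 falls were Eif2ak4, Ppp1r15a, Ppp1r15b, Ddit3, Trib3, Nupr1, Chac1, Fgf21, Psat1, Shmt1, Mthfd2, Aldh18a1, Cbs and Slc1a5. Without Slc7a3, 11 of 37 were higher. Of the 26 calls, 19 held in every alternative fit and with each library left out. Without Acly-/- preadipocyte library 3, 11 genes were higher and 14 lower. With every library rescaled to the same FPKM sum, 10 genes were higher and 15 lower, and rises made up 36.4% rather than 46.7% of the calls over all genes. Adipocyte markers differed between the same libraries, with a summed level, mostly Fabp4, of 10016 to 10726 FPKM in Aclyf/f and 5686 to 7066 FPKM in Acly-/- adipocytes. Fabp4 averaged 8835 and 6113 FPKM, and the other measurable markers fell by more. Adipoq averaged 544 and 60.7 FPKM, Cfd 272 and 18.6 FPKM, Cidec 448 and 181 FPKM and Plin1 196 and 98.4 FPKM. Preadipocyte markers, mostly Ly6a (means of 128 and 649 FPKM), went the other way in sum, at 134 to 199 and 692 to 738 FPKM. Pdgfra and Pdgfrb were higher without Acly too, and Cd34 was lower, at 1.08 and 0.398 FPKM. Smooth muscle and pericyte markers summed to 38.2 to 55.7 and 61.2 to 76.9 FPKM, but did not move as a set. Acta2 averaged 17.4 and 44.8 FPKM and Tagln 19.9 and 20.8 FPKM, while Myh11 was lower without Acly, at 6.96 and 3.14 FPKM. Skeletal muscle markers, mostly Acta1 and Des, were at 3.3 to 4.4 and 4.64 to 6 FPKM, and the other 3 lists were each under 2 FPKM in sum. The part of these marker differences in the results was not tested.

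Both genotype comparisons use separate libraries, so their values can be set side by side. Of the 29 genes that were higher in Acly-/- preadipocytes, 12 were also called higher in Acly-/- adipocytes, 8 were called lower and 9 were not called. Among all tested genes, 25.6% were called higher and 29.2% lower in Acly-/- adipocytes. The same split is not given for all genes called higher in Acly-/- preadipocytes, so whether that of the 29 is unusual cannot be told. The 8 that turned were Ddit3, Trib3, Nupr1, Chac1, Psat1, Mthfd2, Aldh18a1 and Slc1a5. The 9 without a call at day 4 were Ddit4, Asns, Phgdh, Psph, Shmt2, Aldh1l2, Pycr1, Cth and Slc6a9. The difference between stages was called, as lower in adipocytes, for 26 of these 29 (89.7%), and not for Gdf15, Slc7a11 and Slc7a3 (0.0682, 0.102 and 0.0862, adjusted p). That difference subtracts the preadipocyte effect by which the 29 were picked, so a lower value is favoured by the choice. Of all 2325 genes called higher in Acly-/- preadipocytes, 57.3% were called lower and 6.15% higher in the same way.

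**Figure D5:**
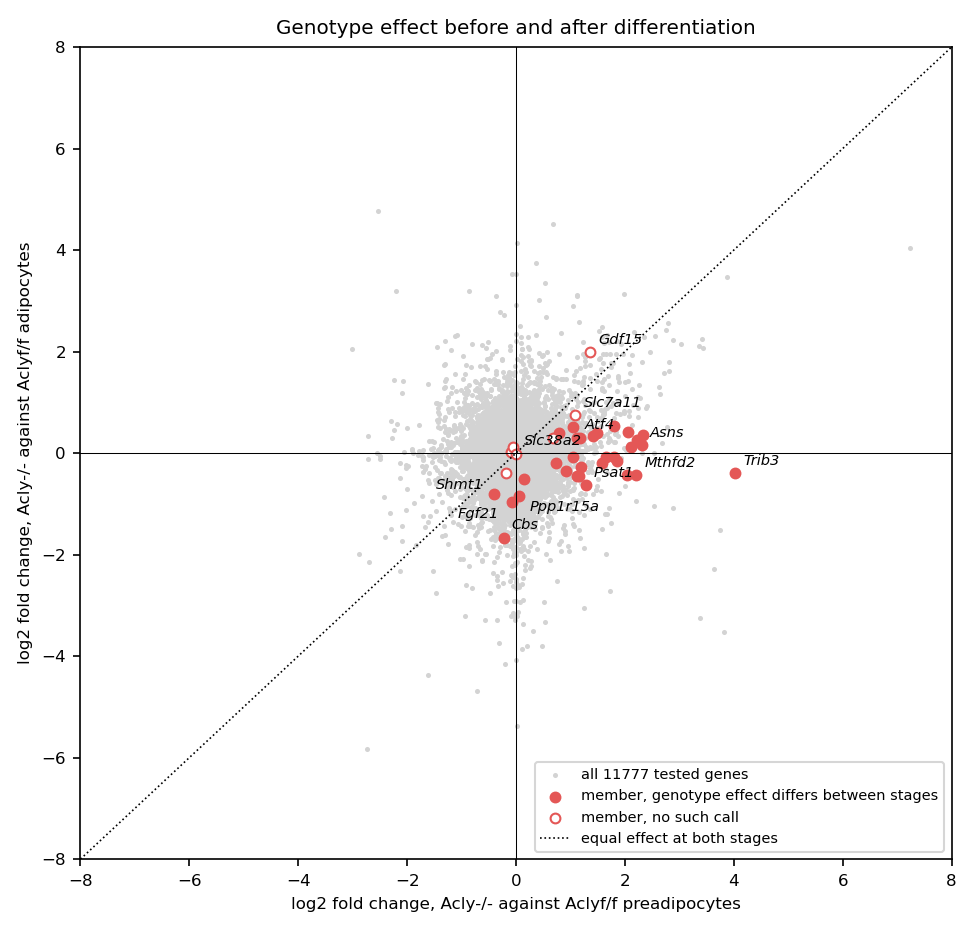
Log2 fold change for Acly-/- against Aclyf/f in preadipocytes (horizontal axis) and in adipocytes (vertical axis) for all 11777 tested genes (grey) and the 38 tested genes of the stress response (red, filled where the genotype effect differed between stages at an adjusted p under 0.05). Most red points lie to the right of 0 and below the dotted line of equal effect, Gdf15 lies above that line, and Trib3 is the red point farthest to the right.

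Differentiation raised most of the genes in Aclyf/f cells. Of the 38, 32 were higher (84.2%) and 3 lower in Aclyf/f adipocytes than in Aclyf/f preadipocytes, where 36.5% of all tested genes were higher and 36.0% lower, and their median log2 fold change was 1.91, against 0.00 over all tested genes. This contrast shares its libraries with those above. Fgf21 and Cbs reached 1 FPKM in adipocytes alone, and Slc7a3 in no Aclyf/f library; among the other 35 genes, 29 were higher and 3 lower. Trib3 rose 74.4-fold, Chac1 21.2-fold, Cth 15.1-fold, Slc1a5 15.1-fold, Mthfd2 14.4-fold and Ddit3 11.4-fold (adjusted p at most 6.5e-11). The falls were Eif2ak3, Eif2ak4 and Slc38a2, the last 1.9-fold (log2 fold change -0.92 with SE 0.08, adjusted p = 2.3e-07). Calls that ended when single libraries were left out were those of Gdf15, without library 1 or 3 of the Aclyf/f preadipocytes (0.0737 or 0.161) or library 1 or 3 of the Aclyf/f adipocytes (0.0708 or 0.106), and Slc7a3, without library 3 of the Aclyf/f preadipocytes (0.151) or library 2 or 3 of the Aclyf/f adipocytes (0.0654 or 0.112). Gdf15 also lost its call with no filter on low values (0.155), quantile normalization (0.0612) and a replicate block (0.0524), and Slc7a3 with no filter on low values (0.0536) and a fit of only the groups compared (0.0651).

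In Acly-/- cells, 25 of the 38 rose with differentiation (65.8%) and 6 fell, where 30.4% of all tested genes rose and 31.0% fell, and the median was 0.39, against 0.00 over all tested genes. Without Fgf21 and Cbs, 23 of 36 rose. Vldlr rose 7.03-fold, Slc1a5 6.15-fold, Ddit3 3.57-fold and Cth 3.06-fold (adjusted p at most 4.84e-07). Trib3 rose 2.26-fold (log2 fold change 1.18 with SE 0.16, adjusted p = 1.91e-05). The falls were Eif2ak3, Eif2ak4, Shmt1, Mthfd1l, Slc7a1 and Slc38a2. With the replicate number as a block, 23 rises and 5 falls were called, the calls lost being Ppp1r15b (0.067), Sesn2 (0.0524) and Slc7a1 (0.0556). The call for Ppp1r15b ended without library 1, 2 or 3 of the Aclyf/f preadipocytes (0.0541, 0.0539 or 0.0512), library 2 or 3 of the Acly-/- preadipocytes (0.0544 or 0.139), library 2 or 3 of the Aclyf/f adipocytes (0.062 or 0.0568) or library 1 or 3 of the Acly-/- adipocytes (0.15 or 0.0728), and with rescaling to the same FPKM sum (0.122), quantile normalization (0.0867), no mean-variance trend (0.0581), a fit of only the groups compared (0.103) and a replicate block (0.067). That for Sesn2 ended without library 1 or 2 of the Acly-/- preadipocytes (0.165 or 0.0741) or library 1 or 2 of the Acly-/- adipocytes (0.0891 or 0.108), and with no filter on low values (0.0976), a fit of only the groups compared (0.0595) and a replicate block (0.0524). Shmt1 lost its call without library 1 or 3 of the Acly-/- preadipocytes (0.063 or 0.0854) or library 3 of the Acly-/- adipocytes (0.132), and with no filter on low values (0.0829), rescaling to the same FPKM sum (0.0587) and a fit of only the groups compared (0.0511). Slc7a1 lost its call without library 1 or 3 of the Acly-/- preadipocytes (0.12 or 0.067) or library 3 of the Acly-/- adipocytes (0.173), and with no filter on low values (0.0816), rescaling to the same FPKM sum (0.121), a fit of only the groups compared (0.0664) and a replicate block (0.0556). The call for Slc7a11 was lost without library 2 of the Acly-/- preadipocytes (0.114) or library 1 of the Acly-/- adipocytes (0.104), and with no filter on low values (0.0733). Atf5 and Slc7a5, which were not called, were called higher without Acly-/- preadipocyte library 3 (0.00254 and 0.00118). Without that library, 26 genes rose and 4 fell.

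The differentiation changes of both genotypes were compared in the interaction, which equals the difference between the genotype effects at both stages. It was called lower in Acly-/- cells for 31 of 38 genes (81.6%) and higher for 0, where 26.4% of all tested genes were lower and 23.7% higher. The 31 include Fgf21 and Cbs, which passed the filter on low values only through adipocytes, where they are higher. Their differences are thus a description, and the Fgf21 call ended with a pseudocount of 0.1 (0.191). At an unadjusted p under 0.05 limma gave 32 lower and 1 higher. The median was -1.18, against -0.02 over all tested genes, and 22 of the 31 had a log2 difference of at most -1, a size reached by 6.68% of all tested genes. The 7 without a call were Eif2ak1, Eif2ak3, Eif2ak4, Gdf15, Slc7a11, Slc7a3 and Slc38a2. The largest differences were in Trib3 (log2 fold change -4.43 with SE 0.22, adjusted p = 7.45e-09), Mthfd2 (log2 fold change -2.64 with SE 0.12, adjusted p = 3.21e-09), Chac1 (log2 fold change -2.46 with SE 0.21, adjusted p = 8.79e-07) and Asns (log2 fold change -2.16 with SE 0.11, adjusted p = 6.68e-09). Vldlr (-0.38, adjusted p = 0.0223) was no longer called without library 1 of the Aclyf/f preadipocytes (0.0521), library 3 of the Aclyf/f adipocytes (0.0528) or library 3 of the Acly-/- adipocytes (0.0516), and with no filter on low values (0.0519) and rescaling to the same FPKM sum (0.0578). Shmt1 (-0.40, adjusted p = 0.0495) lost it without library 2 or 3 of the Aclyf/f preadipocytes (0.104 or 0.106), library 1 or 3 of the Acly-/- preadipocytes (0.0808 or 0.101), library 1, 2 or 3 of the Aclyf/f adipocytes (0.059, 0.0918 or 0.0809) or library 2 or 3 of the Acly-/- adipocytes (0.0649 or 0.115), and with a pseudocount of 0.1 (0.0511), no filter on low values (0.139), a filter on a mean of at least 1 FPKM (0.0506), rescaling to the same FPKM sum (0.0876), quantile normalization (0.0731), no mean-variance trend (0.0539) and a replicate block (0.0555). Slc7a11 gained a call without library 2 of the Acly-/- preadipocytes (0.0381) or library 1 of the Aclyf/f adipocytes (0.0418), and with a pseudocount of 0.1 (0.0486), and Slc7a3 without library 1 of the Aclyf/f preadipocytes (0.03). Gdf15 gained a call as higher without library 3 of the Aclyf/f (0.0273) or Acly-/- preadipocytes (0.00257), and with rescaling to the same FPKM sum (0.0344). Without Acly-/- preadipocyte library 3, 30 genes were called lower and 1 higher.

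Other genes of the pathway, 74 in 5 lists, were looked up beside these, and 65 were tested. In Acly-/- preadipocytes 25 of the 65 were higher and 16 lower (38.5% and 24.6%, against 19.7% and 22.4% of all tested genes), with a median of 0.08. In Acly-/- adipocytes 20 were higher and 18 lower (30.8% and 27.7%, against 25.6% and 29.2% of all tested genes, so near the background), with a median of 0.02. Of 15 further genes tied to ATF4 or to cell stress, 11 were higher and 2 lower at day 0 (73.3% and 13.3%, against the same 19.7% and 22.4%), with a median of 0.65. Bcat1, which transaminates branched-chain amino acids, rose 3.43-fold at day 0, from 7.25 ± 0.484 to 24.9 ± 2.78 FPKM (log2 fold change 1.65 with SE 0.10, adjusted p = 5.72e-08), and was 5.07-fold higher at day 4 (log2 fold change 1.94 with SE 0.10, adjusted p = 6.01e-09). Herpud1, of endoplasmic reticulum quality control, rose 2.71-fold at day 0 (log2 fold change 1.39 with SE 0.08, adjusted p = 3.06e-08). The falls were Gadd45a (-0.52, adjusted p = 0.000247) and Fbxo32 (-0.40, adjusted p = 0.0107). At day 4 this list had 4 higher and 5 lower (26.7% and 33.3%), about the shares of all tested genes. Gpt2, the mitochondrial alanine aminotransferase, was 71.5 ± 1.8 FPKM with Acly against 26.6 ± 1.14 FPKM in its absence, 2.69-fold lower (log2 fold change -1.39 with SE 0.09, adjusted p = 4.25e-08), and Lonp1, the mitochondrial protease, fell too (-0.79, adjusted p = 1.58e-05), while Gadd45a was higher (0.35, adjusted p = 0.0028).

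The machinery around eIF2 showed 4 rises and 3 falls among 12 at day 0 (33.3% and 25.0%, against 19.7% and 22.4% of all tested genes), and 4 and 1 at day 4 (33.3% and 8.33%, against 25.6% and 29.2%). Its leading gene was Eif2ak2, the interferon-induced eIF2 kinase PKR that binds double-stranded RNA, at 42.8, 47 and 46.1 FPKM in the Aclyf/f and 111, 123 and 92.1 FPKM in the Acly-/- preadipocyte libraries. Eif2ak2 in adipocyte libraries was 24.7, 23.3 and 23 FPKM with Acly and 44.4, 39.6 and 39.4 FPKM for Acly-/-. It was 2.4-fold higher in Acly-/- preadipocytes (log2 fold change 1.24 with SE 0.10, adjusted p = 3.44e-07) and 1.74-fold higher in Acly-/- adipocytes (log2 fold change 0.77 with SE 0.10, adjusted p = 1.52e-05), without overlap. In the main fit it was the only one of the 4 eIF2 kinase genes called higher with Acly loss. Eif2b3, a subunit of the exchange factor, rose by 0.41 on the log2 scale at day 0 (adjusted p = 0.00473), and Eif2b4 was lower at day 4 (-0.58, adjusted p = 0.000204). Impact, whose product restrains GCN2, was lower at day 0 (-0.38, adjusted p = 0.00389) and higher at day 4 (0.77, adjusted p = 7.96e-06). Eif2a, an initiation factor that is not part of eIF2, was lower at day 0 (-0.32, adjusted p = 0.0196).

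Further folate, serine and glycine enzymes showed 5 rises and 3 falls among 15 at day 0, with a median of -0.03, and 6 and 3 at day 4. The rises were 33.3% at day 0 and 40.0% at day 4, against 19.7% and 25.6% of all tested genes, and the 3 falls of 15 at either stage stand against 22.4% and 29.2%. Methionine synthase, Mtr, was higher at day 0 (0.76, adjusted p = 1e-05) and day 4 (0.40, adjusted p = 0.00124), as was the purine enzyme gene Atic (0.53, adjusted p = 0.000352, and 0.52, adjusted p = 0.000245). Gldc and Amt, of glycine cleavage, were lower at day 0 (-0.52, adjusted p = 0.00111, and -0.52, adjusted p = 0.0101). At day 4 the cytosolic formyltetrahydrofolate dehydrogenase gene Aldh1l1 was 125 ± 9.92 FPKM with Acly and 41.7 ± 1.12 FPKM without (log2 fold change -1.56 with SE 0.09, adjusted p = 1.93e-08), and thymidylate synthase, Tyms, was lower (-0.76, adjusted p = 1.82e-06).

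Further proline, glutamine and cysteine enzymes showed 4 rises and 1 fall among 11 at day 0 (36.4% and 9.09%, against 19.7% and 22.4% of all tested genes). At day 4 there were 3 and 7 (27.3% and 63.6%, against 25.6% and 29.2%). Proline dehydrogenase, Prodh, which breaks proline down, was 27 ± 0.949 FPKM in adipocytes with Acly and 1.71 ± 0.368 FPKM in those lacking it, 15.8-fold lower (log2 fold change -3.38 with SE 0.12, adjusted p = 1.97e-10), and was not called at day 0 (adjusted p = 0.447). Cysteine dioxygenase, Cdo1, was lower at both stages (-1.07, adjusted p = 4.92e-06, and -1.39, adjusted p = 2.32e-07). Gclc, of glutathione synthesis, and Pycrl, a further pyrroline carboxylate reductase, were higher at day 0 (0.58, adjusted p = 3.38e-05, and 0.47, adjusted p = 0.00742). The methionine adenosyltransferase Mat2a was higher at day 4 (0.59, adjusted p = 0.000295).

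Other plasma membrane amino acid transporters showed 1 rise and 7 falls among 12 tested of 19 at day 0 (8.33% and 58.3%, against 19.7% and 22.4% of all tested genes), with a median of -0.33. At day 4 they showed 3 rises and 2 falls (25.0% and 16.7%, against 25.6% and 29.2%). Slc43a2, a neutral amino acid carrier, was the 1 that rose at day 0 (0.53, adjusted p = 0.00091) and was higher at day 4 too (0.92, adjusted p = 4.49e-06), with Slc7a8 (0.64, adjusted p = 0.00188). Its relative Slc43a1 was lower at both (-0.69, adjusted p = 4.76e-05, and -1.42, adjusted p = 3.54e-08). Slc7a2, a cationic carrier, was lower at day 0 (-0.77, adjusted p = 4.05e-05). Slc1a3, a glutamate carrier, was 11.9 ± 1.07 FPKM in adipocytes with Acly and 1.54 ± 0.0565 FPKM in those lacking it, 7.72-fold lower (log2 fold change -2.34 with SE 0.10, adjusted p = 1.09e-09).

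In some groups 1 library was often the highest. In Acly-/- preadipocytes, library 3 held the highest level for 25 of the 38 genes and library 2 the lowest for 21, where library 3 was highest for 40.4% and library 2 lowest for 29.8% of all tested genes. The median deviation of the 38 genes from the group mean was 0.12 in library 3 and -0.08 in library 2 on the log2(FPKM + 1) scale, against 0.01 and 0.00 for all tested genes. In Acly-/- adipocytes, library 1 was highest for 23 of 38 genes, where it was highest for 32.9% of all tested genes, with a median deviation of 0.05. In Aclyf/f groups the medians lay between -0.01 and 0.01. Without Acly-/- preadipocyte library 3, 30 genes were called higher and 1 lower in Acly-/- preadipocytes, against 29 and 1 with it.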

How the data were processed

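RNA from 12 libraries was sequenced with an Illumina TruSeq kit, per the labels' protocols. The authors deposited 1 table of FPKM values per gene, with 0.01 as its lowest value; bcl2fastq, Bowtie2 2.2.6, Cufflinks 2.2.1 and mm10 stand in the submitters' processing notes. Strand handling is not given in the sources used here. FPKM holds no read counts, so depth is known only in relative terms, and sums of FPKM differ between libraries.

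A gene was tested if 3 or more libraries held 1 FPKM or more of it (11777 of 24341), with limma 3.58.1 (R 4.3.3) on log2(FPKM + 1), with 4 group means, a mean-variance trend and Benjamini-Hochberg adjustment within each contrast. The threshold for a call was an adjusted p of 0.05. The fit was tested on simulated data with 200 changed genes per contrast. Log2 changes of 1 were recovered in 90% to 98% between groups and 81% for the difference between stages. For log2 changes of 0.5 the shares were 61% to 64% and 26%, so smaller differences between stages were often missed in the simulation. False calls made up 3.12% to 6.59% of simulated calls. In the data 5908 genes were called for the difference between stages, far more than 200, which loosens the cutoff on the unadjusted p. The shares found in the simulation thus need not hold for the data. The members and lists were chosen with earlier results of these data known. Values are given library by library for members called in either genotype contrast with a log2 change of 1 or more in size, and for Atf4 and the 3 eIF2 kinase genes. From the other pathway lists, the 2 largest called rises and falls in each genotype contrast are named, with Eif2ak2; 1 gene that this rule picks is not reported here, though the list counts include it. Other pseudocounts, filters, scalings, variance models, sample sets, a replicate block and left-out libraries were tried. Same-numbered libraries deviated together in Acly-/- cells (correlations of deviations from the group means, across genes, 0.123, 0.147 and 0.124), so blocked values stand beside that differentiation contrast. Promoters came from RefSeq (GRCm38.p6).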

Additional observations from a re-analysis of the deposited data

Results flagged for a closer look

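For 31 of the 38 tested genes the effect of Acly loss in adipocytes differed from that in preadipocytes, by limma's test of the difference itself (adjusted p under 0.05). The values below are log2 differences, the effect in adipocytes minus the effect in preadipocytes, and all 31 are negative. Among all tested genes, 26.4% were called lower and 23.7% higher in this test. Of the 31 calls, 28 held in every alternative fit and with each library left out, and those of Shmt1, Vldlr and Fgf21 did not. Fgf21 and Cbs passed the filter on low values only through adipocytes.

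Among the regulators the difference was -4.43 for Trib3, -1.62 for Ddit3, -1.55 for Nupr1, -1.26 for Atf5 and -0.80 for Atf4. The phosphatase subunits stood at -0.90 for Ppp1r15a and -0.65 for Ppp1r15b. Effectors and the hormone Fgf21 gave -2.46 for Chac1, -1.11 for Ddit4, -0.89 for Fgf21, -0.53 for Sesn2 and -0.38 for Vldlr. For serine and folate enzymes the values were -2.64 for Mthfd2, -2.16 for Asns, -2.01 for Phgdh, -2.01 for Aldh1l2, -1.91 for Psat1, -1.77 for Psph, -1.72 for Shmt2, -1.08 for Mthfd1l and -0.40 for Shmt1. Proline and cysteine enzymes gave -1.98 for Cth, -1.46 for Pycr1, -1.44 for Cbs and -0.95 for Aldh18a1. Transporters gave -1.99 for Slc7a5, -1.89 for Slc6a9, -1.64 for Slc1a4, -1.27 for Slc1a5, -1.08 for Slc7a1 and -0.87 for Slc3a2.

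Marker levels differed with stage and genotype alongside these values, and their part was not tested. No outlier test on single values was run within groups, which hold 3 libraries each.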

How the results depend on the processing

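No called value of the 38 genes changed sign under any alternative run. Of the gene values under the alternatives other than left-out libraries, 1802 kept their side of the threshold, 49 lost a call and 6 gained one; with 1 library left out at a time, 2197 kept it, 73 lost a call and 10 gained one. With a pseudocount of 0.1, 2 genes rather than 1 were called lower in preadipocytes. With every library rescaled to the same FPKM sum, 1 gene was called with a higher effect in adipocytes, against 0. That rescaling also took the share of rises among all calls to 34.5% (of 4675) in preadipocytes and 36.4% (of 6074) in adipocytes, from 46.8% and 46.7%. Leaving out 1 library, the counts of higher and lower genes ran from 29 to 30 and 0 to 1 for preadipocytes, 9 to 12 and 10 to 14 for adipocytes, 30 to 32 and 3 to 3 for differentiation of Aclyf/f cells, 22 to 26 and 4 to 6 for that of Acly-/- cells, and 0 to 1 and 29 to 32 for the difference between stages. The causes were not tested.

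With the replicate number as a block, the counts were 29 and 1, 11 and 14, 31 and 3, 23 and 5, and 0 and 30 in the same order. Same-numbered libraries correlated between -0.186 and -0.0581 for the genotypes in preadipocytes, -0.293 and -0.158 in adipocytes and -0.0286 and 0.135 in Aclyf/f cells. In none of these 3 contrasts did every pair pass 0.1, so the numbers were not taken as pairs there, although libraries 1 and 3 of Aclyf/f cells, but not 2, correlated best with their own number. Of these contrasts the block ended the call of Slc7a3 in adipocytes (0.0714) and of Gdf15 in differentiation of Aclyf/f cells (0.0524), and it ended that of Shmt1 in the difference between stages (0.0555). Depth limits genes under 1 FPKM, among them Stc2, Slc7a3, and Fgf21 and Cbs in preadipocytes. With a pseudocount of 0.1 the Fgf21 call for the difference between stages was lost (adjusted p = 0.191).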
